A study of Mus musculus with 53 samples.

Results

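The genes described here are Lifr, Il6st, Stat3 and Socs3, which carry the leukaemia inhibitory factor (LIF) signal of mouse embryonic stem cells (ESCs), and they were chosen by name as 4 of the 21938 protein-coding genes on the main chromosomes. For each gene, every deposited CUT&RUN peak was collected in a window made of the gene body and 50 kb on each side. CUT&RUN maps a protein or histone mark by tethering a nuclease to its antibody and sequencing the DNA that is cut free. The study compared the binding of SOX2, a pluripotency factor, and GATA6, a primitive endoderm factor, with the histone marks H3K4me1, found at primed and active enhancers, and H3K27ac, found at active enhancers and promoters. All cells were SGGC cells, E14JU ESCs in which the endogenous SOX2 protein carries GFP and GATA6 carries mCherry, as clones B9 and B12. The populations were ESCs in 2iLIF (a MEK inhibitor, the GSK3 inhibitor CHIR99021 and LIF), ESCs in NACL (Activin A, CHIR99021 and LIF), cells of KOSR culture sorted as SOX2+ or as SOX2 and GATA6 double positive (DP), and nEnd, naive extra-embryonic endoderm grown in RACL medium. SOX2 was mapped in 10 libraries (2 in 2iLIF, 2 in NACL, 3 in SOX2+ and 3 in DP cells) and GATA6 in 5 (3 in DP cells and 2 in nEnd), so SOX2 in nEnd and GATA6 in 2iLIF, NACL and SOX2+ cells were not analysed here. Each histone mark had 2 libraries in 2iLIF, NACL, SOX2+ cells and nEnd and 1 in DP cells, and 1 further library per mark, titled DP but described as SOX2+, is given apart as unassigned. Libraries of 2iLIF, NACL and nEnd are named by clone, and those of KOSR culture, all from clone B12, by the letter in their titles (A, A1 and B), whose meaning the labels do not give, while both nEnd H3K4me1 libraries came from clone B9 and are called B9.1 and B9.2. The labels do not say that libraries of a group came from separate cultures, so the tests measure the spread between libraries, which may be technical.

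LIF binds the receptor LIFR, which pairs with gp130, the product of Il6st and the shared signalling chain of the interleukin 6 cytokine family. Janus kinases bound to both chains phosphorylate STAT3, which enters the nucleus and activates genes that sustain self-renewal of mouse ESCs. SOCS3 is induced by STAT3, binds gp130 and its kinases, and limits the signal. LIF is among the cytokines of 2iLIF, NACL and RACL.

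On mm10, the Lifr window covered chr15:7040614-7247489 (206876 bp), with the gene at 7090614 to 7197489 on the plus strand and part of Egflam. The Il6st window was chr13:112414070-112560086 (146017 bp), with the gene at 112464070 to 112510086 on the plus strand, part of Il31ra and non-coding genes upstream. The Stat3 window was chr11:100835098-100989540 (154443 bp), with the gene at 100885098 to 100939540 on the minus strand and all or part of Stat5b, Stat5a and Cavin1. The Socs3 window was chr11:117916079-118020047 (103969 bp), with the short gene at 117966079 to 117970047 on the minus strand and part of Pgs1. Distances below are in kb from the gene's 5' end in GENCODE M21, negative upstream. Lifr has further annotated starts within the gene, with RefSeq promoters at chr15:7129322-7129571 and chr15:7140292-7140541 (GRCm38.p6), so that a site called intronic such as that at 26.3 kb lies upstream of those starts. A peak in a window need not act on the gene it is named after.

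Peak lists differed greatly in size and set what each library could show. They held 13514 to 401853 H3K27ac peaks over 0.96 to 21.57% of the genome, 18627 to 130749 H3K4me1 peaks over 2.917 to 7.561%, 1378 to 29623 SOX2 peaks and 1391 to 32510 GATA6 peaks. The DP lists were the shortest for SOX2 (1378, 4859 and 5320 peaks) and for GATA6 (1391, 3821 and 8316 against 24223 and 32510 in nEnd), and their part in each DP comparison was not tested apart from the equal-size lists named below. Read depth is unknown. In H3K27ac, 7 of 8 primitive endoderm markers (Gata4, Sox17, Foxa2, Pdgfra, Dab2, Lama1 and Col4a1, not Sox7) had higher peak coverage in both nEnd libraries than in all 6 libraries of 2iLIF, NACL and SOX2+ cells, where 29% of all genes did. Of 6 ESC markers 3 were lower in both nEnd libraries (7.12% of all genes), while Nanog, Pou5f1 and Klf2 overlapped.

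The sequences below are the sites that carried the binding pattern of the 4 genes. Each is the 200 bp around the strongest maximum of a region made by merging overlapping SOX2 and GATA6 peaks of all libraries, read 5' to 3' on the plus strand of GRCm38. The reference is C57BL/6J, whereas the cells are E14JU. Capitals mark exact matches on either strand. The SOX string was CATTGT. The OCT string was ATGCAAAT. The string searched for GATA factors was AGATAA. Strings for STAT (TTCCNGGAA), ESRRB (TCAAGGTCA) and KLF (CCACACCC) were also searched and are not in these sequences. Of all merged regions, 26.7% hold the SOX string in this length, 3.6% OCT, 33.8% GATA, 1.15% STAT, 1.5% ESRRB and 3.59% KLF, against 15, 2, 23, 2, 1 and 0 of the 53 regions of the 4 windows. A match is a string of letters and not evidence of binding. The first set, at Lifr, holds a site upstream with SOX2 in every SOX2 library and GATA6 in nEnd, an intronic GATA6 site found in every GATA6 library, and the strongest intronic SOX2 site.
Lifr -8.55 kb, chr15:7081962-7082161: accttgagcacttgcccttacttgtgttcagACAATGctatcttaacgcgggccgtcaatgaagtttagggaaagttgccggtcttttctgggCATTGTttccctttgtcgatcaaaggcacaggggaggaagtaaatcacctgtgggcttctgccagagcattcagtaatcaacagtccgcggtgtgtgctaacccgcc
Lifr 7.87 kb, chr15:7098385-7098584: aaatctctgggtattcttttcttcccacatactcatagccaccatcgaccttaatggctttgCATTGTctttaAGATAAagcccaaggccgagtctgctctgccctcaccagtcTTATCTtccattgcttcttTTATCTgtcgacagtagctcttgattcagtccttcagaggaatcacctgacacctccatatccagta
Lifr 26.3 kb, chr15:7116804-7117003: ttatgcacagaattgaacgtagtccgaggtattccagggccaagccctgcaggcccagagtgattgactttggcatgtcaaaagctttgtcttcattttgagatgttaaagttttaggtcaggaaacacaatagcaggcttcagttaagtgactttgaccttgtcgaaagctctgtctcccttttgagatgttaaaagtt
The second set, at Il6st, holds the distal SOX2 site with nEnd GATA6, the GATA6 site of all GATA6 libraries, and the neighbouring sites before the gene where SOX2 was found in the pluripotent libraries and GATA6 in nEnd.
Il6st -47.5 kb, chr13:112416445-112416644: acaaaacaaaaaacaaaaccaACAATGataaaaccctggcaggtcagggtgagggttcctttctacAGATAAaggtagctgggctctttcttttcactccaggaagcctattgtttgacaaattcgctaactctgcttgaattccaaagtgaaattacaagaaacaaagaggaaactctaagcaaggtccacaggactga
Il6st -24.5 kb, chr13:112439460-112439659: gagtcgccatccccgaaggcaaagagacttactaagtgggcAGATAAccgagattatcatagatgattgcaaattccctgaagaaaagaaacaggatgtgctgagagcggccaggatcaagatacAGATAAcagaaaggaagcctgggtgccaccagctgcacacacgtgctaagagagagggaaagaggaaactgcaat
Il6st -1.42 kb, chr13:112462546-112462745: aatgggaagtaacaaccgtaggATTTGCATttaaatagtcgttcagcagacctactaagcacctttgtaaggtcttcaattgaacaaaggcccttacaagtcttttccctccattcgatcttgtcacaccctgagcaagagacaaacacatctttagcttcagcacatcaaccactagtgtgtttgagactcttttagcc
Il6st -0.69 kb, chr13:112463284-112463483: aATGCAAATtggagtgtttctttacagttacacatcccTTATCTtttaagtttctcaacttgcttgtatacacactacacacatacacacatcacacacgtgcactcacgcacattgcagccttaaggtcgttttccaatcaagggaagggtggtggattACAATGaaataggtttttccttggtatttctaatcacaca
The last set holds the adjacent GATA6 and SOX2 sites upstream of Socs3 and the intronic GATA6 site of Stat3.
Socs3 -4.73 kb, chr11:117974675-117974874: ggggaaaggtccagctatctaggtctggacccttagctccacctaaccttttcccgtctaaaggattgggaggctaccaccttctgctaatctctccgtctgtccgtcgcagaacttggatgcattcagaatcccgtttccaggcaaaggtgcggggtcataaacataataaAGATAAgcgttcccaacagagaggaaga
Socs3 -5.60 kb, chr11:117975545-117975744: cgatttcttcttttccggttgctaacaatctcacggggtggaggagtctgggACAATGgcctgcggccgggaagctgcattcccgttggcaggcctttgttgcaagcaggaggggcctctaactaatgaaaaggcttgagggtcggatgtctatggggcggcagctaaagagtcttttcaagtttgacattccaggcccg
Stat3 2.10 kb, chr11:100937343-100937542: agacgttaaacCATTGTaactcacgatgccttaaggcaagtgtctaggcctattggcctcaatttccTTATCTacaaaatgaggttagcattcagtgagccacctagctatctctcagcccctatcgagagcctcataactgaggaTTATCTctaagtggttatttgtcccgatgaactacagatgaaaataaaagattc

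The 4 windows held 53 merged SOX2 and GATA6 regions, 21 at Lifr, 10 at Il6st, 11 at Stat3 and 11 at Socs3. SOX2 peaks lay in 19 of them, GATA6 peaks in 43 and both in 9, and 21 regions had a peak in a single library. In DP cells, the only region with peaks of both factors was Il6st -24.5 kb, where the peaks themselves overlapped in DP A1 alone. Lifr and Il6st had a SOX2 peak in all 10 SOX2 libraries, as did 7.89% of all gene windows, and a GATA6 peak in all 5 GATA6 libraries, as did 7.33%. All 4 windows had a GATA6 peak in both nEnd libraries, where 62.7% of windows did, so this was common. Among the 72577 merged regions of the genome, 1.52% had SOX2 in all 10 libraries and 1.15% had GATA6 in all 5. The windows held 3 of the former (2 at Lifr and 1 at Il6st) and 2 of the latter (1 at each).

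**Figure D1:**
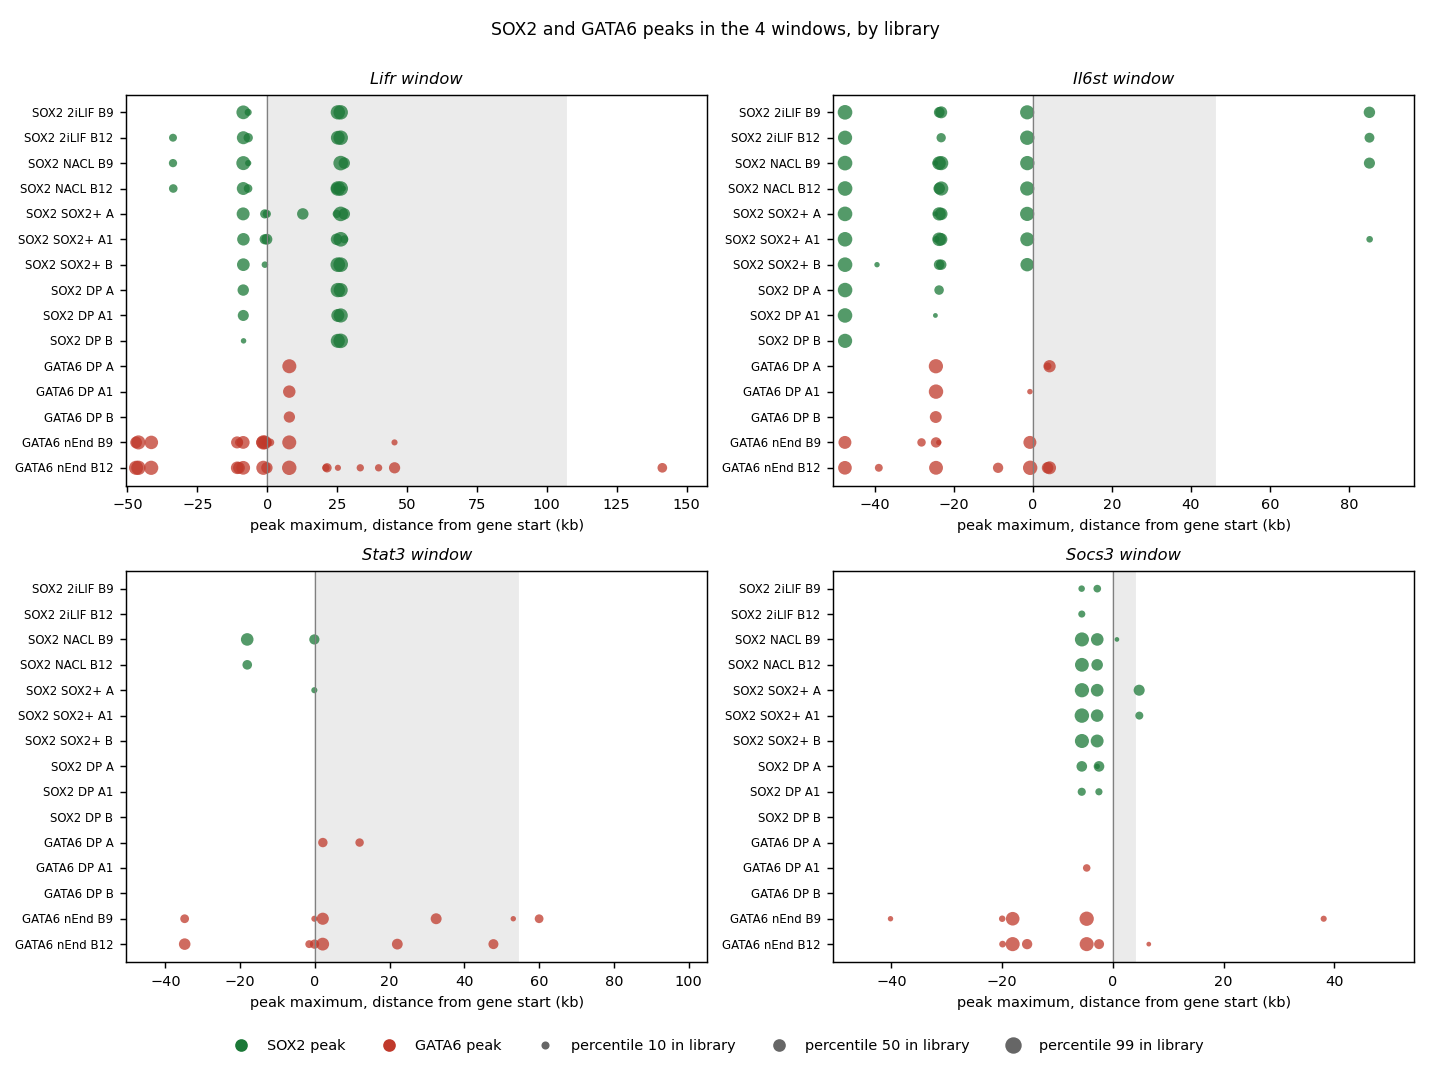
SOX2 (green) and GATA6 (red) peaks in the 4 windows. Each row is a library, the x axis is the distance of the peak maximum from the gene start in kb, the grey span is the gene body, and the point size is the percentile of the peak within its library. Lifr and Il6st show columns of SOX2 peaks through all 10 SOX2 libraries, and Stat3 has SOX2 peaks in 3 libraries.

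Lifr, the LIF-binding receptor chain, had the strongest SOX2 binding in its introns. The region at 26.3 kb (chr15:7115187-7117423) had SOX2 peaks in all 10 libraries. Its best peak ranked 410 of 13177 in 2iLIF B9, 184 of 8203 in 2iLIF B12, 194 of 29623 in NACL B9 and 156 of 17111 in NACL B12 by maximum signal. In SOX2+ cells it ranked 104 of 16819 (A), 61 of 20609 (A1) and 59 of 10513 (B), and in DP cells 228 of 4859 (A), 381 of 5320 (A1) and 20 of 1378 (B). Its percentile, the share of the library's peaks with an equal or lower maximum, was 92.9 or more in every SOX2 library, DP included. The region held a pair of maxima 1022 to 1038 bp apart, called as separate peaks in 7 libraries and under a single wide peak in 3 (NACL B9, SOX2+ A and SOX2+ A1). GATA6 appeared there only in nEnd B12, near the bottom of its list (rank 29455 of 32510). H3K27ac and H3K4me1 covered the region in all 8 assigned libraries of each mark, in the DP libraries and in the unassigned ones, whereas 19.4% of regions with SOX2 in all 10 libraries lay in H3K27ac peaks of all 8. None of the searched strings is in the printed 200 bp.

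At -8.55 kb from the Lifr start (chr15:7081743-7082426, intergenic), SOX2 peaks were again present in all 10 libraries but at lower ranks. The percentile was 87.0 and 76.9 in 2iLIF, 90.7 and 75.7 in NACL and, for SOX2+ cells, 76.0, 70.4 and 72.6. In DP cells it was 56.6, 52.7 and 5.4 in DP A, A1 and B, at ranks 2110 of 4859, 2518 of 5320 and 1304 of 1378. The pluripotent peaks ranked 1710 to 6105 in longer lists. A rank cannot exceed the length of its list, so these ranks do not compare the populations. GATA6 was bound at this region in both nEnd libraries (percentiles 74.1 and 86.5) and in none of the 3 DP libraries, with the median maxima of the factors 39 bp apart. Of the 1100 regions with SOX2 in all 10 libraries, 29% had GATA6 in both nEnd libraries and 10.2% had it there and in no DP library. The printed sequence holds 2 SOX strings and no GATA string.

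The GATA6 site of all 5 GATA6 libraries lay in the Lifr intron at 7.87 kb (chr15:7098246-7098715). It was the single GATA6 peak of the window in each DP library, ranking 755 of 8316 in DP A, 1169 of 3821 in DP A1 and 621 of 1391 in DP B, and ranked 2212 of 24223 in nEnd B9 and 1190 of 32510 in nEnd B12. No SOX2 library had a peak there. H3K27ac covered it in both nEnd libraries, 1 of 2 in 2iLIF, 1 of 2 in NACL and neither SOX2+ library. Its sequence holds 3 GATA strings and 1 SOX string. Over all regions with GATA6 in all 5 libraries, 83.1% held a GATA string in the same length, against 33.8% of all merged regions.

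In nEnd, GATA6 was spread over the Lifr locus, with 13 peaks in B9 and 16 in B12 against 1 in each DP library. The nEnd peaks included 2 regions near the far upstream edge (-46.9 and -46.1 kb), a region at -41.5 kb, 2 at -10.8 and -10.1 kb and 2 at the start (-1.39 and -0.12 kb), each in both libraries. At -1.39 kb GATA6 ranked 1192 of 24223 in nEnd B9 and 2448 of 32510 in nEnd B12, and the same merged region carried SOX2 peaks in all 3 SOX2+ libraries (percentiles 33.3, 42.7 and 11.9) but in no 2iLIF, NACL or DP library. Within 1 kb of a Lifr start, GATA6 was present in both nEnd libraries (11.4% of genes) and SOX2 in all 3 SOX2+ libraries (3.49% of genes). SOX2 peaks at -33.6 and -6.81 kb were found in 3 and 4 of the 4 libraries of 2iLIF and NACL and in no SOX2+ or DP library.

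**Figure D2:**
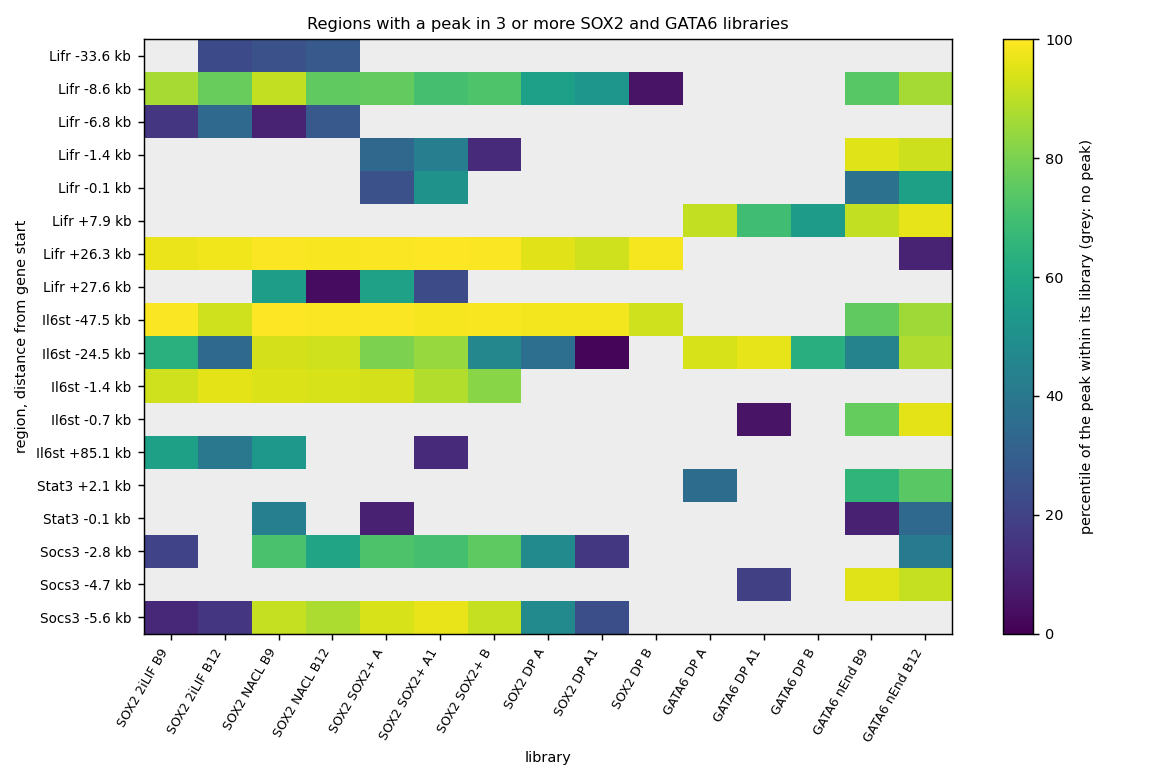
Percentile, within its own library, of the strongest peak at each of the 18 regions that had peaks in 3 or more of the 15 SOX2 and GATA6 libraries. Rows are regions by gene and distance from its start in kb, columns are libraries, and grey is no peak. Lifr 26.3 kb and Il6st -47.5 kb are at percentile 92.8 or more in every SOX2 library, and Il6st -1.4 kb is grey in the 3 DP libraries.

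Il6st, which encodes the shared signalling chain gp130, had its strongest SOX2 site far upstream at -47.5 kb (chr13:112416330-112416978) in 9 of 10 libraries, all but 2iLIF B12, whose best peak lay at -1.42 kb. The upstream site is within 1 kb of the start of the non-coding gene 2810403G07Rik. SOX2 ranked there 70 of 13177 and 590 of 8203 in 2iLIF, and 55 of 29623 and 73 of 17111 in NACL. The SOX2+ ranks were 110 of 16819, 297 of 20609 and 96 of 10513, and the DP ranks 88 of 4859, 100 of 5320 and 99 of 1378. All 10 peaks were at percentile 92.8 or more of their lists. GATA6 peaks overlapped the site in both nEnd libraries (ranks 5883 of 24223 and 4678 of 32510) with a median maximum 26 bp from that of SOX2, and no DP library had one. The sequence holds a SOX string on the minus strand and a GATA string on the plus strand. H3K27ac covered the site in all 8 assigned libraries, and H3K4me1 in 2iLIF, SOX2+ cells and nEnd but in neither NACL library.

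At -24.5 kb (chr13:112438839-112441072) GATA6 was found in all 5 libraries, at percentiles 93.8, 96.2 and 62.7 in DP cells and 44.8 and 88.2 in nEnd, and the groups overlapped. It ranked 519 of 8316 in DP A, 147 of 3821 in DP A1 and 520 of 1391 in DP B, and 13361 of 24223 and 3828 of 32510 in nEnd B9 and B12. SOX2 peaks fell in the same merged region in 9 of 10 libraries, all but DP B, with a median maximum 793 bp from that of GATA6. In DP A and DP A1 these SOX2 peaks stood at percentiles 36.6 and 1.8, against 34.3 to 93.4 in the 7 pluripotent libraries. The sequence at the GATA6 maximum holds 2 GATA strings.

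Immediately before the gene, the factors occupied neighbouring regions in different populations. At -1.42 kb (chr13:112462100-112463060) SOX2 was present in all 7 libraries of 2iLIF, NACL and SOX2+ cells, at percentiles 92.8 and 96.1 in 2iLIF, 94.7 and 93.9 in NACL and, for SOX2+ cells, 93.5, 88.6 and 82.4. None of the 3 DP libraries had a peak there. Of the 4902 regions with SOX2 in all 7 pluripotent libraries, 36.5% likewise had none in DP cells. At -0.69 kb (chr13:112463160-112464167) GATA6 was present in both nEnd libraries (percentiles 76.4 and 96.0) and near the bottom of the DP A1 list (5.4). Both printed sequences hold an OCT string, and the GATA6 region also holds a SOX and a GATA string. Around 4 kb into the gene, GATA6 was found at 3.72 and 4.22 kb in DP A and nEnd B12. Furthest downstream, a SOX2 region in an intron of Il31ra at 85.1 kb was present in both 2iLIF libraries, NACL B9 and SOX2+ A1.

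Socs3, the feedback inhibitor, carried SOX2 and GATA6 peaks in neighbouring regions upstream of the gene, with overlap in 1 of them. The main SOX2 region at -5.60 kb (chr11:117975290-117975880) was present in all 7 pluripotent libraries and in DP A and DP A1. Its percentile was 11.7 and 15.7 in 2iLIF, 91.3 and 87.6 in NACL and, for SOX2+ cells, 93.8, 96.8 and 91.1, with DP A and A1 at 47.8 and 23.9. The 2iLIF values were below those of every NACL and SOX2+ library without overlap. The share of merged regions that separate in this way was not counted, and the coverage test given below did not call Socs3 for NACL minus 2iLIF. Another SOX2 region at -2.83 kb, with a lower maximum than at -5.60 kb in the NACL and SOX2+ libraries and DP A1, a higher one in 2iLIF B9 and an equal one in DP A, was present in 8 libraries, all but 2iLIF B12 and DP B, and its printed-length sequence holds an ESRRB string (TCAAGGTCA). In this region nEnd B12 had a GATA6 peak at -2.49 kb (percentile 41.2), and the SOX2 maxima of DP A and DP A1 lay at -2.5 and -2.515 kb. GATA6 also lay at -4.73 kb (chr11:117974320-117975147), between the SOX2 regions, ranking 1225 of 24223 in nEnd B9, 2881 of 32510 in nEnd B12 and 3093 of 3821 in DP A1, and no SOX2 library had a peak in it. The Socs3 window had no other GATA6 peak in DP cells, while nEnd B9 had 5 and B12 had 6, with regions at -18.1 and -19.9 kb in Pgs1 introns shared by both. A STAT string (TTCCNGGAA) was found at a region 0.74 kb past the Socs3 start, where NACL B9 alone had a SOX2 peak, and at Il6st -28.2 kb, where nEnd B9 alone had a GATA6 peak. STAT3 binding itself was not analysed here.

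Stat3, the transcription factor of the pathway, had the fewest SOX2 peaks. They numbered 2 in NACL B9, 1 in NACL B12 and 1 in SOX2+ A, and none was found in the 2iLIF, DP or other SOX2+ libraries. At the start itself (-0.13 kb) weak peaks of SOX2 (NACL B9 and SOX2+ A) and of GATA6 (both nEnd libraries) overlapped, at percentiles 43.3, 9.1, 9.2 and 34.4. GATA6 had 6 peaks in each nEnd library, 2 in DP A and none in DP A1 or B. The only GATA6 region shared by DP and nEnd lay in an intron at 2.10 kb (chr11:100937295-100937614), with percentiles of 35.4 in DP A, 65.6 in nEnd B9 and 74.4 in nEnd B12, and its sequence holds 2 GATA strings and 1 SOX string. A GATA6 region at -34.8 kb was found in both nEnd libraries and was in no H3K27ac or H3K4me1 peak of any library.

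**Figure D3:**
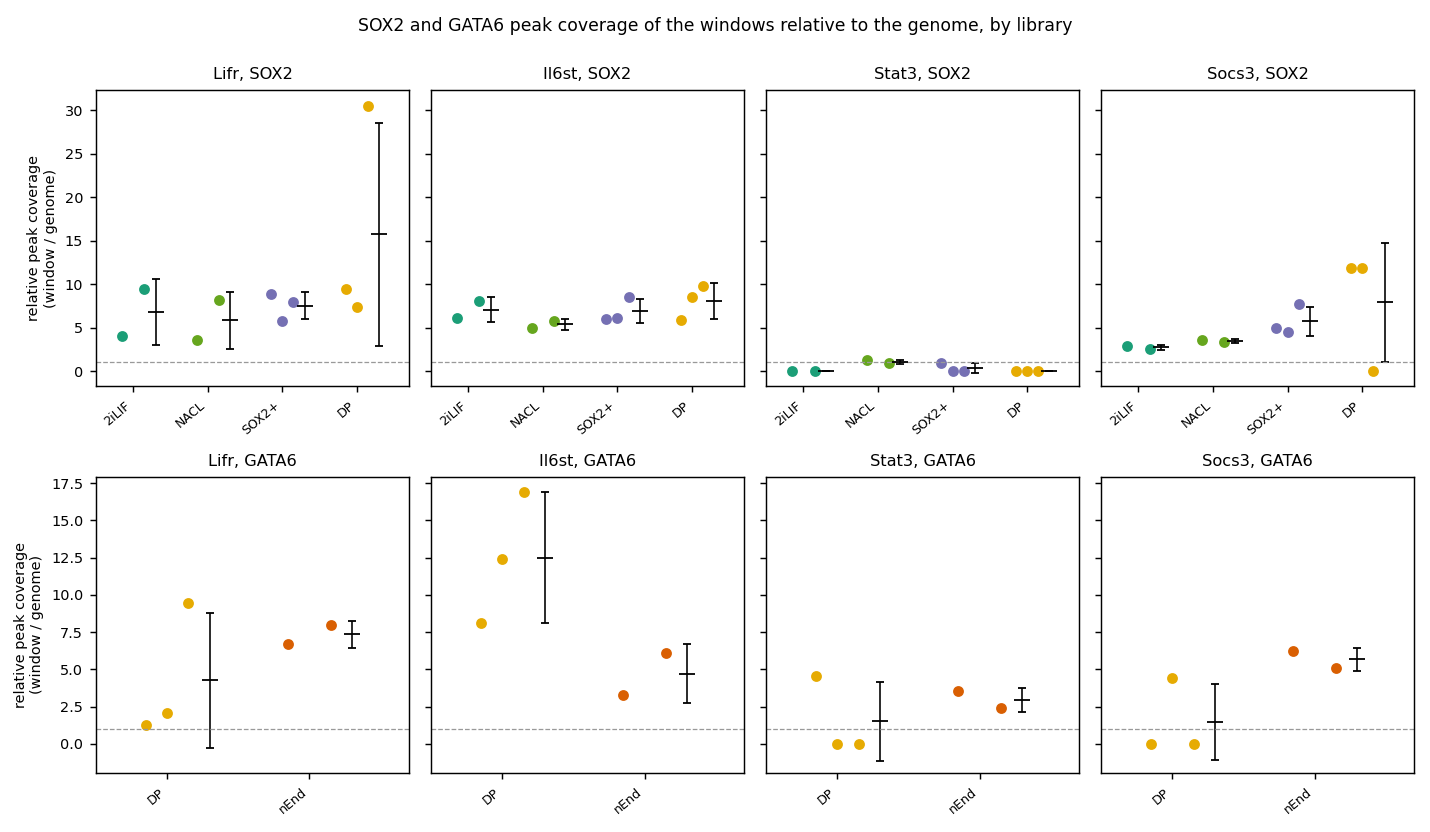
Peak coverage of each window relative to the genome (y axis, ratio) for SOX2 (top) and GATA6 (bottom), by population (x axis). Points are libraries, the bar and whiskers beside them are the mean and SD, and the dashed line at 1 is the genome average. The DP point of Lifr at 30.5 comes from the shortest SOX2 list.

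To compare populations, the share of a window covered by peaks was divided by the share of the genome that library's peaks covered, and log2 of this relative coverage plus 1 was tested over all genes with limma, with Benjamini-Hochberg adjustment. In SOX2, the Lifr window had a relative coverage of 4.07 and 9.46 in 2iLIF, 3.52 and 8.15 in NACL and, for SOX2+ cells, 8.83, 5.79 and 7.96, while the DP libraries stood at 9.41, 7.34 and 30.5. The groups overlapped, and DP minus pluripotent was 0.93 ± 0.47 (log2, SE, n = 3 and 7 libraries, limma adjusted p = 0.153), and 0.35 ± 0.35 without DP B (limma adjusted p = 0.454). Socs3 had 2.91 and 2.54 in 2iLIF, 3.60 and 3.32 in NACL and, for SOX2+ cells, 4.99, 4.48 and 7.67, while the DP libraries stood at 11.9, 11.9 and 0, so that DP A and A1 were above every pluripotent library and DP B had no peak. Its difference was 0.20 ± 0.75 (limma adjusted p = 0.839), and without DP B it was 1.43 ± 0.22 (limma adjusted p = 0.00362). With each library held to its 1378 strongest peaks the Socs3 difference reversed to -1.29 ± 0.15 (limma adjusted p = 0.000376). Only the SOX2+ libraries kept a Socs3 peak in these lists (ranks 1048, 658 and 934), while DP cells, 2iLIF and NACL were all at 0. This reversal therefore does not place DP cells below 2iLIF or NACL. The positive differences at Lifr and Il6st turned to -0.0851 ± 0.17 (limma adjusted p = 0.734) and -0.82 ± 0.35 (limma adjusted p = 0.121), so the direction at Lifr, Il6st and Socs3 depended on list length. Il6st had 4.95 to 8.50 in the pluripotent libraries and 5.83, 8.57 and 9.82 in DP cells (difference 0.28 ± 0.26, limma adjusted p = 0.424). With flanks of 10 kb, which leave out the -47.5 and -24.5 kb regions and keep -1.42 kb, the Il6st difference was -2.30 ± 0.26 (limma adjusted p = 0.000791). At Stat3 it was -0.45 ± 0.22 (limma adjusted p = 0.149).

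None of the 4 members passed the test in SOX2 for DP minus pluripotent, where 5.47% of 15447 genes were higher and 23.6% lower. Against SOX2+ cells alone, again none passed, where 20.3% of genes did, and the differences ran from -0.32 at Stat3 to 0.73 at Lifr. The Socs3 difference of -0.26 was 0.97 without DP B (limma adjusted p = 0.0278) and -3.87 with equal lists (limma adjusted p = 3.86e-06), in which no DP library kept a Socs3 peak. That of Il6st, 0.19, was -1.99 with 10 kb flanks (limma adjusted p = 0.00269) and -0.40 with equal lists, in which Lifr stood at -0.32. Between NACL and 2iLIF no member passed in SOX2 either, against 3.3% of genes, with the largest difference at Stat3 (1.03 ± 0.32, limma adjusted p = 0.139), which had peaks in both NACL libraries and in neither 2iLIF library.

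In GATA6, Il6st had a relative coverage of 8.12, 12.4 and 16.9 in DP cells and 3.32 and 6.11 in nEnd, and the groups did not overlap. In relative coverage the other members pointed the other way, with overlap at Lifr and Stat3 and none at Socs3. The share of all genes that separate without overlap was not counted. At Il6st the DP values rested on 3, 2 and 1 peaks, against 5 and 7 in nEnd. Before division by the genome share, its window was covered less in DP cells (0.73, 0.61 and 0.27%) than in nEnd (1.36 and 3.27%). Lifr had 1.25, 2.09 and 9.44 in DP cells and 6.69 and 8.01 in nEnd. Stat3 had 4.56, 0 and 0 against 3.54 and 2.40, and Socs3 had 0, 4.40 and 0 against 6.22 and 5.13. The differences of DP minus nEnd were 1.23 ± 0.45 at Il6st (limma adjusted p = 0.0975), -0.996 ± 0.832 at Lifr (0.43 by the same test), -1.15 ± 0.94 at Stat3 (0.42) and -1.92 ± 0.94 at Socs3 (0.193), with n = 3 and 2 libraries. None of the 4 passed, where 2.07% of 14609 genes were higher and 42.4% lower in DP cells. That balance rested on the unequal lists and on both nEnd libraries: equal lists gave 583 higher and 679 lower of 2876 genes, and leaving out nEnd B9 or B12 gave 40 or 47 higher and 0 lower. Leaving out DP A at Stat3, DP A1 at Socs3 or DP B at Lifr brought each past the threshold, at -1.97, -2.73 and -1.66. With equal lists of 1391 peaks the Lifr difference turned to 0.34 ± 0.29 (limma adjusted p = 0.394).

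**Figure D4:**
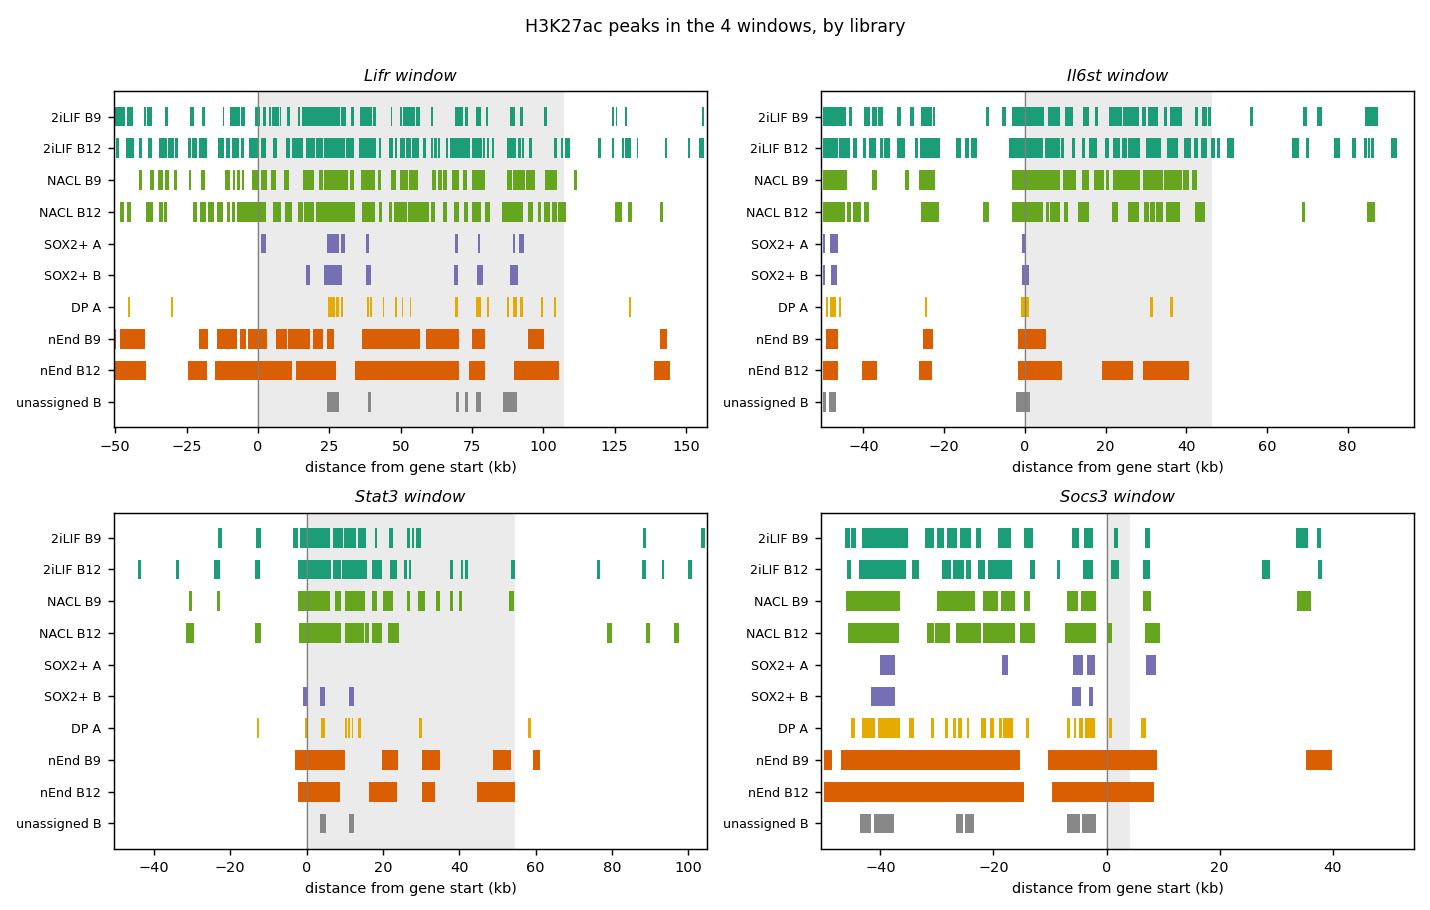
H3K27ac peaks (bars) in each window by library. The x axis is the distance from the gene start in kb, the grey span is the gene body, and colours are populations. The 2 nEnd libraries show long blocks at Socs3 and around the Lifr start, and Stat3 has no bar in SOX2+ A.

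In H3K27ac, Lifr was higher in nEnd under every alternative tried, Socs3 was higher but overlapped SOX2+ cells, and Stat3 was higher by a call that most alternatives ended. At Lifr the strongest H3K27ac peak lay between 25.2 and 27.6 kb, at or next to the intronic SOX2 pair, in all 6 pluripotent libraries, in DP A and in the unassigned library. In both nEnd libraries it lay instead at the 5'-most start, at -0.91 and -0.92 kb (ranks 366 of 21394 and 809 of 20072), where GATA6 also peaked in nEnd. The share of the Lifr window in H3K27ac peaks was 32.1 and 48.8% in 2iLIF, 37.2 and 49.1% in NACL, 6.43 and 7.64% in SOX2+ cells, 8.26% in DP A and 43.7 and 59.0% in nEnd. Relative to the genome this was 2.44 and 2.26, 2.38 and 3.08, 6.70 and 7.28, 3.51, and 8.67 and 9.18. Both nEnd libraries were above all others in relative coverage. The 2iLIF and NACL lists covered 13.17 to 21.57% of the genome, which caps their relative coverage. In the share of the window itself, nEnd B9 (43.7%) lay below 2iLIF B12 (48.8%) and NACL B12 (49.1%). nEnd minus pluripotent was 1.10 ± 0.13 (log2, SE, n = 2 and 6 libraries, limma adjusted p = 0.000698), and it passed under all 14 alternatives, from 0.93 to 1.30, with equal-length lists of 13514 peaks at 1.14 ± 0.26.

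The Socs3 window had a relative H3K27ac coverage of 2.11 and 1.24 in 2iLIF, 1.91 and 2.12 in NACL, 8.85 and 6.11 in SOX2+ cells, 8.02 in DP A, 10.9 and 8.01 in nEnd and 9.29 in the unassigned library. nEnd was far above 2iLIF and NACL and overlapped SOX2+ cells. The difference of nEnd minus pluripotent was 1.36 ± 0.21 (limma adjusted p = 0.00153). In nEnd a domain of 19325 bp (B9) and 18187 bp (B12) ran across the gene and its upstream SOX2 and GATA6 sites, and a domain of 31705 and 37489 bp covered the far upstream part, whereas the peaks of SOX2+ cells were 763 to 4327 bp wide. nEnd H3K27ac peaks were wider throughout (median 4386 and 5453 bp against 1008 to 1574 bp in the pluripotent libraries), and counted as number of peaks in place of covered bases the Socs3 difference was 0.43 ± 0.29 (limma adjusted p = 0.231). The 2iLIF and NACL lists covered 13.17 to 21.57% of the genome, which caps their relative coverage, and the SOX2+ lists 0.96 and 1.05%, so how much of the gap to 2iLIF and NACL reflects list size was not tested beyond the equal-length lists, in which the difference was 2.01 ± 0.48 (limma adjusted p = 0.0166).

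Stat3 had a relative H3K27ac coverage of 1.28 and 1.03 in 2iLIF, 1.15 and 1.22 in NACL, 0 and 2.36 in SOX2+ cells, 1.70 in DP A and 3.68 and 3.19 in nEnd. The difference of 1.11 ± 0.40 was just past the threshold (limma adjusted p = 0.0458) and lost it under 12 of 14 alternatives, among them leaving out 2iLIF B9 or B12, NACL B9 or B12 or either nEnd library (1.03 to 1.19) and equal-length lists (0.28 ± 0.52, limma adjusted p = 0.684). Il6st did not differ past the threshold (0.16 ± 0.25, limma adjusted p = 0.591), its nEnd libraries standing at 1.71 and 4.29 around pluripotent values of 2.02 to 2.85. It was 0.64 (limma adjusted p = 0.039) without nEnd B9 and -0.32 without nEnd B12. In all, 3 of the 4 members were higher in nEnd, against 35.6% of 21150 genes higher and 25% lower.

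**Figure D5:**
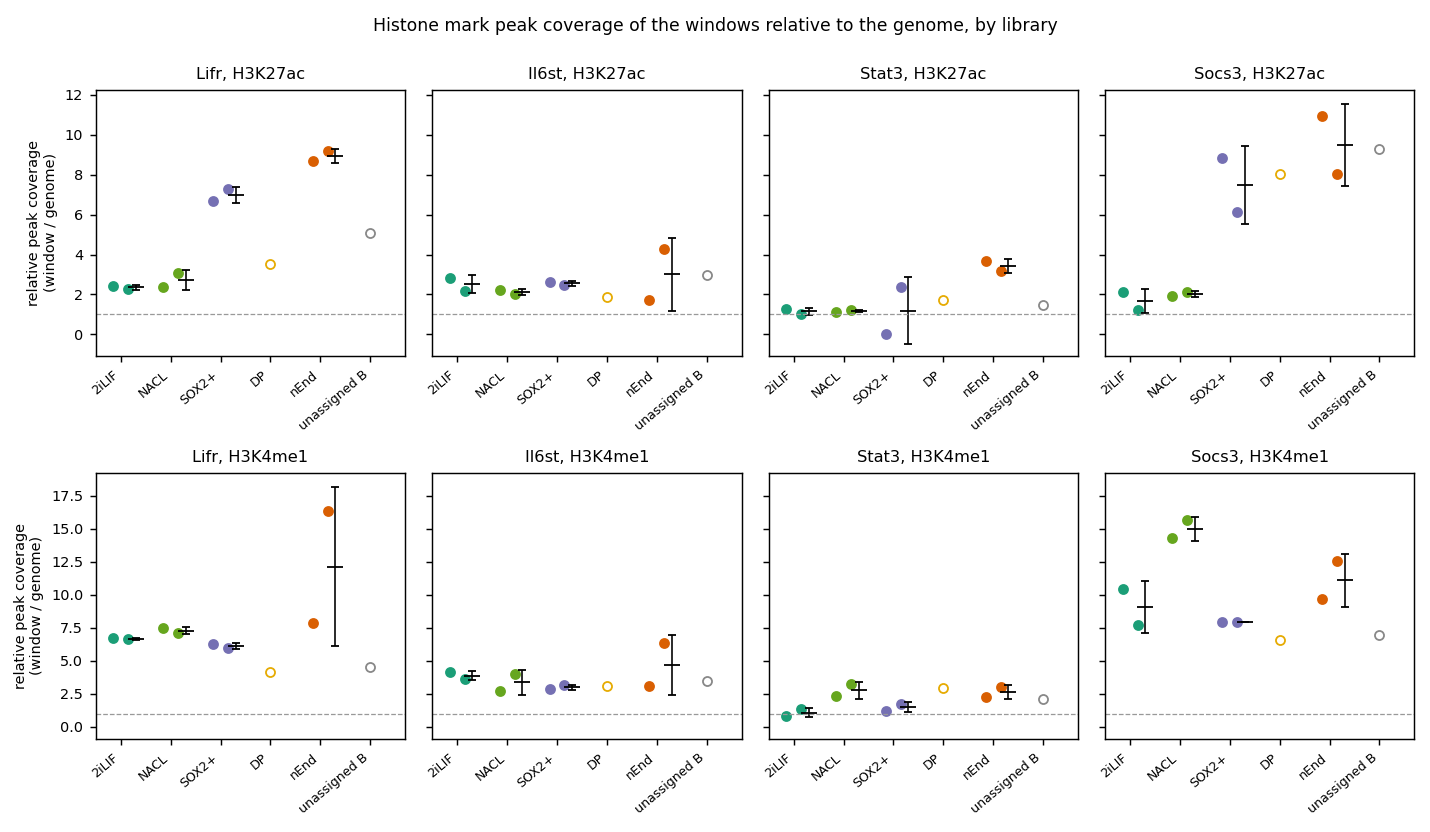
Relative peak coverage of each window (y axis, ratio to the genome) for H3K27ac (top) and H3K4me1 (bottom) by population (x axis). Filled points are libraries of groups of 2 with the mean and SD beside them, open points are the single DP libraries and the unassigned libraries, and the dashed line at 1 is the genome average. For H3K27ac both nEnd points of Lifr are above all others, while those of Socs3 overlap the SOX2+ points.

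H3K4me1 covered Lifr and Socs3 in every population. The relative coverage of Lifr was 6.70 and 6.61 in 2iLIF, 7.47 and 7.10 in NACL, 6.26 and 5.93 in SOX2+ cells, 4.14 in DP A and 7.86 and 16.4 in nEnd. Both nEnd values were above the pluripotent ones but lay far apart, and the difference of 0.70 ± 0.24 missed the threshold (limma adjusted p = 0.0622), while it was 1.181 without B9.1 (limma adjusted p = 0.00281) and 0.21 without B9.2 (limma adjusted p = 0.312). In 2iLIF the best H3K4me1 peak of the Lifr window ranked 27 of 33252 in B9 and 27 of 52599 in B12, at 27.6 and 28.1 kb. Socs3 had 10.4 and 7.67 in 2iLIF, 14.3 and 15.6 in NACL, 7.93 and 7.95 in SOX2+ cells, 6.56 in DP A and 9.64 and 12.5 in nEnd. Both NACL libraries were above all others, and NACL minus 2iLIF was 0.68 ± 0.20 (limma adjusted p = 0.178). Stat3 had 0.82 and 1.34 in 2iLIF against 2.31 and 3.21 in NACL, without overlap (0.86 ± 0.28, limma adjusted p = 0.219). The share of all genes whose NACL and 2iLIF libraries separate likewise was not counted. Il6st stood between 2.69 and 4.12 in the pluripotent libraries and at 3.11 and 6.32 in nEnd, a difference of 0.33 ± 0.25 (limma adjusted p = 0.344) that was 0.74 without B9.1 (limma adjusted p = 0.0344) and -0.0911 without B9.2. No member passed in H3K4me1 for nEnd minus pluripotent (16.9% of 19212 genes higher, 15.8% lower) or for NACL minus 2iLIF (0.245% of genes), and none in H3K27ac for NACL minus 2iLIF, where limma called 0% of genes (1046 had an unadjusted p under 0.05). Past the threshold were Stat3 in nEnd minus pluripotent with 10 kb flanks (0.93 ± 0.23, limma adjusted p = 0.0313) and Socs3 in NACL minus 2iLIF with equal-length lists (0.68 ± 0.12, limma adjusted p = 0.0498), both in H3K4me1.

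Around the gene starts, H3K27ac was the most widely shared signal. A peak within 1 kb of an annotated start was found in all 8 assigned H3K27ac libraries at Lifr and Il6st, as at 14.8% of genes, in 7 at Stat3 (not SOX2+ A) and in 5 at Socs3 (not 1 NACL library and neither SOX2+ library). H3K4me1 was found there in all 8 assigned libraries at Lifr and Il6st, as at 3.9% of genes, in 6 at Stat3 and in 1 at Socs3, an nEnd library. Within 0.25 kb of a start, H3K4me1 was found in 8 of the 8 libraries at Lifr, 7 at Il6st, 1 at Stat3 and 1 at Socs3. GATA6 was found within 1 kb of a start in both nEnd libraries at Lifr, Il6st and Stat3, as at 11.4% of genes, and in 2 of 3 DP libraries at Il6st. It was in neither nEnd library at Socs3, whose best peak in nEnd B9 is 4.73 kb upstream.

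The overlap of nEnd GATA6 regions with nEnd H3K27ac was counted as a description. Of 42 regions with GATA6 in an nEnd library, 34 (81%) lay in H3K27ac peaks of both nEnd libraries, against 48.8% of such regions in the genome. By gene this was 16 of 17 at Lifr, 5 of 8 at Il6st, 6 of 9 at Stat3 and 7 of 8 at Socs3. Regions inside the long nEnd domains are counted here, and regions of a window share them. In 4 of the 53 regions, H3K27ac was present in both nEnd libraries and in no pluripotent one, as in 3.08% of all merged regions: Lifr 45.5 kb with GATA6 in both nEnd libraries, Socs3 -15.5 kb with GATA6 in nEnd B12 alone, Stat3 32.4 kb with GATA6 in nEnd B9 alone, and Socs3 4.75 kb with SOX2 in 2 SOX2+ libraries.

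Beside the 4 members, 44 other genes of the pathway were counted, chosen with earlier results of these data known as a list of ligands, receptors, kinases and phosphatases, STATs, inhibitors and STAT3 targets. In H3K27ac, 22 of 44 (50%) were higher and 5 (11.4%) lower in nEnd than in the pluripotent libraries, against 35.6% higher and 25% lower of all genes, with a median difference of 0.47 against 0.15 over all genes. The higher genes were led by Osm, the ligand oncostatin M (1.74 ± 0.19, limma adjusted p = 0.000462), Ptpn6, a phosphatase (1.71 ± 0.43, limma adjusted p = 0.0119), and Pias4, a member of the family of STAT inhibitors (1.65 ± 0.18, limma adjusted p = 0.000506). The lower ones were led by Socs2 (-2.04 ± 0.16, limma adjusted p = 0.000232), a suppressor of cytokine signalling, Myc (-0.91 ± 0.28, limma adjusted p = 0.0242), a STAT3 target, and Jak1 (-0.86 ± 0.17, limma adjusted p = 0.004), the main kinase of gp130. By role, 4 of 7 ligands, 3 of 4 receptors, 5 of 7 kinases and phosphatases, 2 of 6 STATs (Stat5a and Stat5b, whose windows share bases with that of Stat3), 6 of 10 inhibitors and 2 of 10 STAT3 targets were higher, and 3 of those targets were lower.

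In H3K4me1, 5 of 44 (11.4%) were higher and 8 (18.2%) lower in nEnd, near the 16.9% and 15.8% of all genes, with Socs1 (2.26 ± 0.30, limma adjusted p = 0.00329), an inhibitor, leading the former and the STAT3 targets Myc (-2.32 ± 0.25, limma adjusted p = 0.00171), Gbx2 (-1.99 ± 0.30, limma adjusted p = 0.00456) and Pim1 (-1.15 ± 0.22, limma adjusted p = 0.0091) the latter. In SOX2, 3 of 35 tested genes were higher and 13 (37.1%) lower in DP cells than in the pluripotent libraries, against 5.47% higher and 23.6% lower of all genes. With equal lists the split over all genes was 352 higher and 412 lower of 3280, and the pathway genes were not tested that way. Higher were Cntf (1.48), Socs2 (1.31) and Il11 (1.31), and the largest negative differences were at Myc (-2.24), the receptor gene Il6ra (-2.23) and Lif itself (-1.71). Against SOX2+ cells alone 2 were higher and 9 lower, where 20.3% of all genes passed in either direction, and the lower ones were led by Pim1 (-2.81), Bcl3 (-2.07) and Myc (-1.65). Between NACL and 2iLIF, none of the 44 passed in either histone mark. In GATA6, 1 of 37, Ptpn6 (1.54), was higher in DP cells than in nEnd and 16 (43.2%) were lower, led by Lif (-2.88), Klf4 (-2.79) and Socs1 (-2.40). That share of lower genes was close to the 42.4% over all genes, whose dependence on list length is given above, and the pathway genes were not tested with equal lists.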

How the data were processed

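Peak lists of 35 CUT&RUN libraries were used, of which 31 entered tests, 2 DP histone libraries were given apart and 2 were unassigned, and 18 IgG samples carried no list. Per the study's methods and the submitters' processing notes, reads were trimmed (cutadapt 1.18), aligned to GRCm38/mm10 (Bowtie2 2.3.4.1), filtered (SAMtools 1.9, Picard 2.9.1) and called per library against IgG with SEACR. The deposited signal values are coverage on each library's own scale, as total and maximum per peak, so ranks were taken within a library. The lists are named relaxed for histone marks and stringent for factors, the opposite of the methods. The NACL B12 SOX2 library carries a source name for IgG and was grouped by its title.

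Windows came from GENCODE M21. Relative coverage is the percent of a window in peaks divided by the percent of the 2725521370 bp genome in peaks. It was tested as log2(value + 1), so that differences understate changes of low values, with limma 3.58.1 (R 4.3.3) over genes with a peak in at least 2 libraries of the fit, each antibody fitted over all its groups, at an adjusted p of 0.05, and the fits were tested on simulated data. "Pluripotent" is the mean of 2iLIF, NACL and SOX2+ cells. Peaks sharing at least 1 bp were merged into regions. Tables used Python 3.11.15, pandas 2.3.3 and numpy 2.4.6, and figures matplotlib 3.10.9. Alternatives changed the pseudocount (0.1), the filter, the measure (number of peaks), the list length, the flank (10 kb), a replicate block and the libraries. The members are named throughout, with at most 3 pathway genes past the threshold in each direction by size and the 2 genes most like each member, and the members and lists were chosen with earlier results of these data known. Same-numbered libraries did not deviate together throughout (correlations of -0.12 to 0.22), so they were not treated as pairs.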

Additional observations from a re-analysis of the deposited data

How the results depend on the processing

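Of 382 alternative values for the members, 322 kept their side of the threshold without a change of sign (Stat3 in SOX2, DP against SOX2+, was 0 without SOX2+ A), 37 changed sign, 13 kept their direction and lost a call, and 10 kept it and gained one. Of the sign changes, those of Socs3 with equal peak numbers and of Il6st with 10 kb flanks in SOX2, DP against pluripotent, and of Il6st with 10 kb flanks and of Socs3 without DP B in SOX2, DP against SOX2+, were past the threshold. With equal peak numbers only the SOX2+ libraries kept a SOX2 peak at Socs3. The lists give no read depth, so short lists limit what DP cells could show and long 2iLIF and NACL lists cap relative coverage. With 10 kb flanks the sign changed for Il6st in H3K27ac, NACL against 2iLIF (0.0149), Socs3 in H3K4me1, nEnd against pluripotent (-0.0040), Socs3 in SOX2, DP against pluripotent (-0.30), Il6st in SOX2, DP against pluripotent (-2.30), Il6st in SOX2, DP against SOX2+ (-1.99). With equal peak numbers the sign changed for Il6st in H3K27ac, nEnd against pluripotent (-0.11), Stat3 in H3K27ac, NACL against 2iLIF (-0.21), Il6st in H3K27ac, NACL against 2iLIF (0.39), Lifr in H3K27ac, NACL against 2iLIF (-0.12), Socs3 in H3K4me1, nEnd against pluripotent (-0.0535), Lifr in H3K4me1, NACL against 2iLIF (-0.0902), Socs3 in SOX2, DP against pluripotent (-1.29), Il6st in SOX2, DP against pluripotent (-0.82), Lifr in SOX2, DP against pluripotent (-0.0851), Il6st in SOX2, DP against SOX2+ (-0.40), Lifr in SOX2, DP against SOX2+ (-0.32), Lifr in SOX2, NACL against 2iLIF (0.68), Lifr in GATA6, DP against nEnd (0.34). By number of peaks the sign changed for Stat3 in H3K27ac, NACL against 2iLIF (-0.0294), Socs3 in H3K27ac, NACL against 2iLIF (-0.17), Socs3 in H3K4me1, nEnd against pluripotent (-0.20), Il6st in H3K4me1, NACL against 2iLIF (0.28), Socs3 in SOX2, DP against SOX2+ (0.0630), Socs3 in SOX2, NACL against 2iLIF (-0.25). With a pseudocount of 0.1 the sign changed for Socs3 in SOX2, DP against pluripotent (-0.66). Leaving out single libraries changed the sign for Il6st in H3K27ac, nEnd against pluripotent (-0.32 to 0.64), Stat3 in H3K27ac, NACL against 2iLIF (-0.0621 to 0.10), Socs3 in H3K27ac, NACL against 2iLIF (-0.0477 to 0.43), Socs3 in H3K4me1, nEnd against pluripotent (-0.0789 to 0.27), Il6st in H3K4me1, nEnd against pluripotent (-0.0911 to 0.74), Il6st in H3K4me1, NACL against 2iLIF (-0.40 to 0.0467), Socs3 in SOX2, DP against pluripotent (-0.41 to 1.43), Socs3 in SOX2, DP against SOX2+ (-0.88 to 0.97), Lifr in SOX2, NACL against 2iLIF (-0.70 to 0.34). H3K27ac, nEnd against pluripotent had 12825 calls, 7147 with equal peak numbers. H3K27ac, NACL against 2iLIF had 0 calls, 48 with no filter on genes, 128 with equal peak numbers, 0 to 102 without single libraries. H3K4me1, nEnd against pluripotent had 6273 calls, 3781 with number of peaks, 3099 with replicate block (clone), 3408 to 7099 without single libraries. H3K4me1, NACL against 2iLIF had 47 calls, 380 with pseudocount 0.1, 223 with no filter on genes, 0 with number of peaks, 337 with equal peak numbers, 0 with replicate block (clone), 0 to 135 without single libraries. SOX2, DP against pluripotent had 4493 calls, 764 with equal peak numbers, 2610 with 10 kb flanks. SOX2, DP against SOX2+ had 3142 calls, 382 with equal peak numbers, 1744 with 10 kb flanks. SOX2, NACL against 2iLIF had 510 calls, 945 with pseudocount 0.1, 224 with equal peak numbers, 0 to 382 without single libraries. GATA6, DP against nEnd had 6495 calls, 1262 with equal peak numbers, 40 to 9037 without single libraries. Peaks in the 4 windows had 53 regions, 32 with regions with peaks in at least 2 libraries, 27 with stronger 50% of peaks. The replicate block (clone, or the letter of KOSR libraries) ended the H3K27ac call of Stat3 (1.10) and no other member's call. H3K4me1 calls for nEnd against pluripotent were 3408 without SOX2+ A, 3673 without SOX2+ B and 5654 without 2iLIF B12. GATA6 calls fell to 40 without nEnd B9 and 47 without nEnd B12. Leaving out libraries from the region and start site counts was chosen after seeing the data. The cause of these changes was not tested.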

Other observations

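The unassigned library of each histone mark, titled DP and described as SOX2+, had a relative H3K27ac coverage of 5.08 at Lifr, 2.96 at Il6st, 1.49 at Stat3 and 9.29 at Socs3. In H3K4me1 it had 4.49 at Lifr, 3.47 at Il6st, 2.12 at Stat3 and 6.97 at Socs3.

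The genes whose log2 relative coverage over the 31 libraries was most like that of a member, by Pearson correlation, were Nucks1 (0.72) and Zmynd8 (0.71) for Lifr, Ftsj1 (0.88) and Pcdh19 (0.86) for Il6st, Rusc1 (0.90) and Gm43738 (0.89) for Stat3, and Misp (0.89) and Palm (0.88) for Socs3. These values are a description over libraries of 4 antibodies, which share list sizes and antibody differences.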
